A study of Mus musculus with 2 samples.

Results

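Leukocyte adhesion genes were described in mouse marrow cells cultured beneath ID8 tumour cells. The group held 9 genes: the integrin subunit genes Itgam, Itgal, Itgax, Itgb2, Itga4 and Itgb1, the selectin ligand gene Selplg, the hyaluronan receptor gene Cd44 and the integrin ligand gene Icam1. Its members were taken by name, as the probe sets that GEO's platform annotation assigns to 1 of these genes alone, and they made up 22 probe sets and 9 of 18193 named genes. No probe set named a member together with another gene.

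The cells came from femurs of C57BL/6 mice and were grown in RPMI-1640 with 5% FBS. For the sample described here, ID8-induced MDSC, they stood below ID8 cells, a mouse ovarian surface epithelial tumour line that the labels also write as 1D8, in a 24-well transwell plate for 4 days. MDSC are myeloid-derived suppressor cells, a mixed population of immature granulocytes and monocytes that dampens T cell responses. The sample's title names tumour supernatant as the inducer, whereas the protocol has living tumour cells in the upper chamber. The other sample was labelled as control bone marrow cells from the same strain and bone, with no tumour cells named for it, and the labels do not state how long it was cultured. Both samples carry the phenotype CD11b+Gr1+ in the labels, and no sort that selected such cells is described. Each group held 1 array, so the values have no replicate error and no group difference could be tested. Precision is limited throughout by this number of arrays.

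The control column could not be set against the members. Its 45037 signals formed 2 interleaved descending sequences along the probe set IDs, with 0 rises from row to row among values at or above its last value and 0 among those below it, against 10622 and 11804 rises in the ID8-induced column split in the same way. Control values are therefore not tied to probe sets, and no fold change is given for any gene. All values below are MAS5 signals on a linear scale from the ID8-induced array, and they say nothing of whether tumour cells changed a transcript. Percentiles give the share of the array's probe sets that read lower. The floor, below which a signal is called dim, is the array's 40th percentile (68.77). Probe sets differ in how strongly they hybridise, so a percentile locates a reading within the array and is no measure of how abundant one transcript is beside another.

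Integrins are heterodimers of an alpha and a beta subunit that hold leukocytes to other cells and to matrix. Circulating myeloid cells first roll on selectins, through sugars carried by PSGL-1 and CD44, and then arrest when chemokine signals switch integrins to a high-affinity form that binds ICAM-1 or VCAM-1 on endothelium. In bone marrow the same molecules keep progenitors in their niches, and CD11b, the product of Itgam, is one of the antigens by which MDSC are defined.

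The adhesion genes gave signals in the bright part of the array for most members. All 9 genes lay above the floor on their brightest probe set, as did 71.3% of all genes, so this count does not set them apart. The array's 90th percentile (619.81) was reached by 7 of the 9, against 14.8% of all genes, and its 99th percentile (4651) by 2, Itgb2 and Cd44, against 1.39%. The median percentile was 96.6 over the 9 genes and 61.4 over all genes. When the probe sets of a gene were averaged on the log2 scale, 5 of the 9 reached the 90th percentile (8.61% of all genes), and with the dimmest probe set 4 did (6.46%), Itgam, Itgb2, Selplg and Icam1. Nothing particular to the group is read from these shares. Itgax and Itga4 were the 2 members below the 90th percentile on their brightest probe set. In bulk RNA, fewer cells that carry a transcript, less of it per cell and a probe set that hybridises weakly cannot be told apart.

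**Figure D1:**
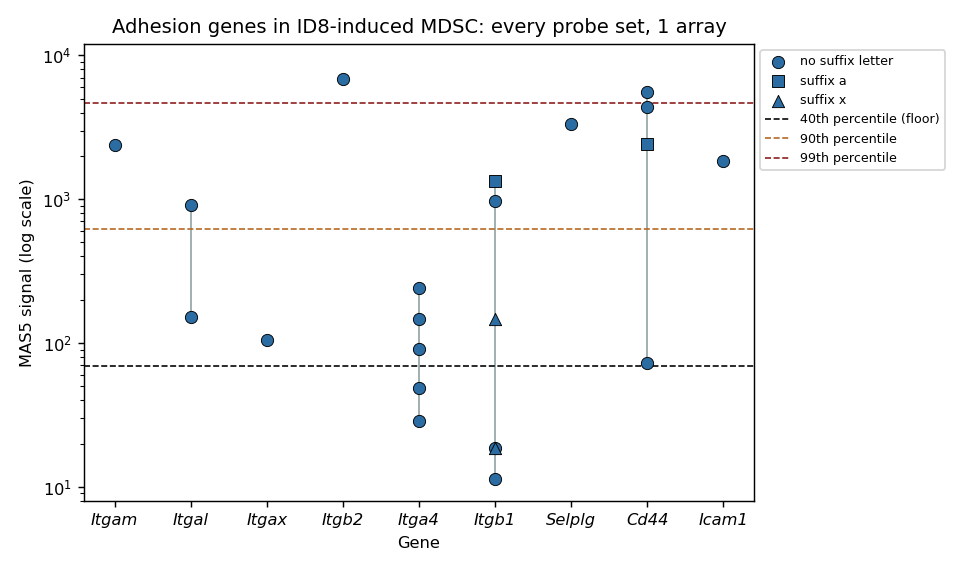
MAS5 signal (log scale) of each of the 22 probe sets of the 9 adhesion genes on the ID8-induced array, with a point per probe set, a line joining the probe sets of a gene and dashed lines at 3 percentiles of the array. Itgb2 and the brightest Cd44 probe set lie above the 99th percentile, while the probe sets of Itgb1 spread from 11.31 to 1330.98.

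The beta2 integrin genes were represented by 3 alpha subunits and their common partner. Itgb2, which encodes CD18, read 6879.76 on its only probe set, 1450678_at, at percentile 99.5. CD18 is needed for any of the CD11 alpha chains to reach the cell surface. Itgam, which encodes CD11b, the alpha chain of Mac-1 (complement receptor 3), read 2374.74 on its only probe set, 1422046_at, at percentile 97.4. Mac-1 binds ICAM-1, fibrinogen and the complement fragment iC3b. CD11b is also the antigen in the labelled phenotype of the cells, and no protein was measured here.

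Itgal, which encodes CD11a, the alpha chain of LFA-1, had 2 probe sets. They read 907.12 (1435560_at, percentile 93.0) and 151.55 (1425367_at, percentile 66.8), both above the floor. The disagreement between them was 5.99-fold, and 86.7% of the 4695 genes with 2 probe sets had a smaller one. LFA-1 is an integrin through which lymphocytes and myeloid cells hold to ICAM-1. Itgax, which encodes CD11c, read 105.5 on its only probe set, 1419128_at, at percentile 55.8 and 1.53 times the floor. CD11c is carried by most dendritic cells and by some macrophages and monocytes. With 1 probe set and 1 array, Itgax stood above the floor at the 40th percentile and below one at the 60th (119.96).

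Itgam and Itgax are neighbours in the mouse genome with no protein-coding gene between them in the GRCm38.p6 annotation, and Itgad, another CD11 alpha gene, follows Itgax. Itgad had no probe set named for it alone and was not analysed here. The starts of the first pair, and that of Icam1, the gene of a ligand that their products share, are printed to show what sequence lies there. Each window runs from 250 bases before the annotated start to 50 bases from it, 5′ to 3′ along the gene, from RefSeq, with matches to short motifs in capitals.
Itgam promoter window, GRCm38.p6, chr7:128062390-128062689, plus strand: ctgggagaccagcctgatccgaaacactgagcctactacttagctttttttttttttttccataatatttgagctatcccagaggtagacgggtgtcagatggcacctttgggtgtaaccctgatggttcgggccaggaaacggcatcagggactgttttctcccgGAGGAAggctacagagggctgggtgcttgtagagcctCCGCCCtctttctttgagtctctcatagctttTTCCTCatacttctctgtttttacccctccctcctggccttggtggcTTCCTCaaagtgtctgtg
Itgax promoter window, GRCm38.p6, chr7:128129300-128129599, plus strand: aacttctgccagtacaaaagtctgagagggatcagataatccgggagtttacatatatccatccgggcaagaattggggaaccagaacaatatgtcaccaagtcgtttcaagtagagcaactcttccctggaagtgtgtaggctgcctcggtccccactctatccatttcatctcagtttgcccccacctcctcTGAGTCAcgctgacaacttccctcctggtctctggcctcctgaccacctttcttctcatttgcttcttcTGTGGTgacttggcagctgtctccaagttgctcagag
Icam1 promoter window, GRCm38.p6, chr9:21015690-21015989, plus strand: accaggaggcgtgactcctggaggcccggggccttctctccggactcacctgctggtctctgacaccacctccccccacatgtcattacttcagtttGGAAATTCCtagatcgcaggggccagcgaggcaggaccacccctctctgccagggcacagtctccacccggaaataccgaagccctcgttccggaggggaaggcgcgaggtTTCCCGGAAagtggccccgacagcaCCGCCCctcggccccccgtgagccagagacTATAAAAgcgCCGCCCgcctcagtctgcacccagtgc

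RefSeq windows of 6 of the 9 genes were found (Itgam, Itgax, Itga4, Itgb1, Cd44 and Icam1). Matches to 8 short motifs were searched for on both strands, with the letters chosen after the sequences had been read. Distances are counted from 0 at the annotated start. Itgam held GAGGAA, the core of sites for the myeloid factor PU.1, 3 times, at -84, and in reverse complement at -15 and 32. At least 1 such match stood in 28.3% of all 32851 windows and in 3 of the 6 member windows, which were Itgam, Itgb1 and Cd44. The Sp1 letters GGGCGG were present in reverse complement in Itgam, at -47. On either strand they stood in 5 of the 6 member windows and in 35.7% of all windows. Itgax held the AP-1 letters TGANTCA at -56, found in 7.81% of windows, and the RUNX letters TGTGGT at 13, found in 16.8%. The RUNX letters stood in 2 of the 6 member windows.

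The Icam1 window held the NF-kB letters GGAAANTCC at -153, which 1.25% of windows contain. It also held the STAT letters TTCNNNGAA at -42 (8.3% of windows), the TATA box letters TATAAAA at 13 (5.48%) and the Sp1 letters in reverse complement at -17 and 23. The C/EBP letters TTGCNNAA were in 0 of the 6 member windows and in 10.8% of all. No motif searched overlapped another in the 3 printed windows. A match is a description of the letters and does not show that a factor was bound, and the array does not measure binding.

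**Figure D2:**
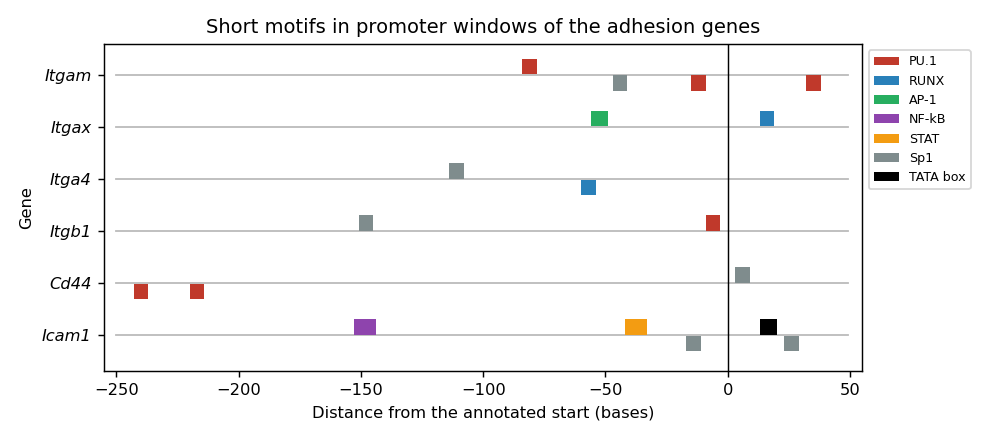
Positions of motif matches, in bases from the annotated start, in the windows of the 6 adhesion genes that had one, with bars above the line for matches along the gene and below it for the reverse complement. Itgam holds 3 PU.1 matches, and the NF-kB and STAT matches are both in Icam1.

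The genes of the VLA-4 integrin, which binds VCAM-1 and fibronectin and retains progenitors in marrow, gave signals that depended on the probe set. Itga4, which encodes CD49d, had 5 probe sets at 240.06 (1436037_at), 146.36 (1421194_at), 90.93 (1450155_at), 48.61 (1456498_at) and 28.65 (1427615_at). The first 3 were above the floor and the other 2 below it, and none reached the 90th percentile. Brightest over dimmest was 8.38, near the median of 7.45 among the 463 genes with 5 probe sets. The annotation ties 1421194_at and 1450155_at to the same sequence record, and these differed 1.61-fold.

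Itgb1, which encodes CD29, the beta chain of VLA-4 and of many matrix-binding integrins, had 6 probe sets. Those above the floor read 1330.98 (1452545_a_at, percentile 95.2), 964.7 (1426918_at, percentile 93.4) and 146.43 (1427771_x_at, percentile 66.0). The other 3 read 18.61 (1438119_at), 18.59 (1426920_x_at) and 11.31 (1426919_at), at or below percentile 5.8. The bright and dim probe sets do not divide by the sequence they were made from. The probe sets 1426918_at, 1426920_x_at and 1426919_at share a sequence record in the annotation, and within it the signals differed 85.3-fold, while 1452545_a_at and 1427771_x_at share another and differed 9.09-fold. Across all 6 the ratio was 118, and 93.9% of the 244 genes with 6 probe sets had a smaller one. An _x_at suffix marks probe sets some of whose probes can match other transcripts, and 2 of the 6 carry it. Whether the dim Itgb1 probe sets miss the transcript made in these cells was not tested.

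Selplg, which encodes PSGL-1, the ligand on leukocytes for P-selectin, read 3348.01 on its only probe set, 1449127_at, at percentile 98.3. PSGL-1 binds selectins only after sialylated and fucosylated sugars and sulphated tyrosines are added to it. Cd44, which encodes the hyaluronan receptor and another carrier of such sugars, had 4 probe sets at 5571.31 (1423760_at), 4385.16 (1434376_at), 2438.44 (1452483_a_at) and 73.11 (1443265_at). The first 3 lay at percentiles 97.5 to 99.2, and the last at percentile 42.4, 1.06 times the floor. Brightest over dimmest was 76.2, larger than in 97.7% of the 1092 genes with 4 probe sets, whose median ratio was 5.25. Each Cd44 probe set comes from a sequence record of its own, and Cd44 is known for alternative splicing. Which transcripts the dim probe set reads was not tested.

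Icam1 encodes ICAM-1, the ligand of LFA-1 and Mac-1, which inflammatory signals raise on endothelium and on leukocytes. It read 1854.13 on its only probe set, 1424067_at, at percentile 96.6. The genes of a receptor (Itgam with Itgb2) and of its ligand (Icam1) were thus all above the 90th percentile in the same RNA. The array does not tell which cells carried which transcript.

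Taking each probe set separately, 17 of the 22 member probe sets were above the floor (77.3%), against 63.5% of all probe sets named for 1 gene. On the dimmest probe set of each gene, 7 of the 9 genes passed, against 49.7% of all genes. The exceptions were Itga4 and Itgb1. For Itgam, Itgax, Itgb2, Selplg and Icam1 the array holds 1 probe set each, so no second reading of their signal exists within it.

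Among all integrin subunits, most of those at or above the 90th percentile were members. The members were chosen with earlier results of these data known, so nothing particular to them is read from this. Of 26 subunit genes listed, 24 had a probe set of their own. Of the 24, 20 lay above the floor, beside 71.3% of all genes, and 5 reached the 90th percentile, beside 14.8%. Of these 5, 4 were Itgam, Itgal, Itgb2 and Itgb1. The fifth was Itgav, which encodes the alpha chain of vitronectin receptors, with 1642 on its brightest and 44.13 on its dimmest of 5 probe sets. With the mean log2 signal over probe sets in place of the brightest, 2 of the 24 reached the 90th percentile, Itgam and Itgb2. The share of all genes was 8.61%.

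The other alpha subunits with the highest percentiles were Itga5 (the fibronectin receptor chain) at 186.74 and Itga2b (the platelet fibrinogen receptor chain) at 175.08. The lowest were Itgae (CD103, of intraepithelial lymphocytes) at 70.12, Itga7 (a laminin receptor chain of muscle) at 57.81 and Itga8 at 34.86. Itga7 and Itga8 were the 2 of 16 measured alpha genes not above the floor. Among beta subunits other than the members, Itgb7, a partner of CD49d in gut homing, read 400.2, Itgb3 202.9 and Itgb5 191.22. Itgb6, which pairs with the alpha V chain on epithelium, read 136.25. Itgb4, of epithelial hemidesmosomes, and Itgb8 were the 2 of 8 below the floor, at 44.16 and 15.93.

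**Figure D3:**
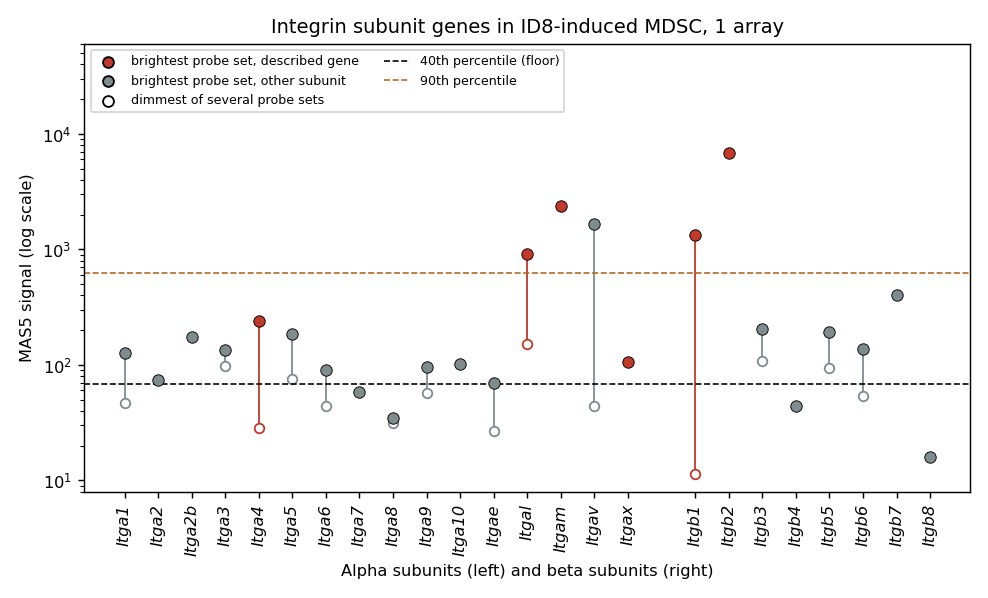
MAS5 signal (log scale) of 24 integrin subunit genes on the ID8-induced array, with filled points for the brightest probe set, open points for the dimmest where a gene has several, and dashed lines at the 40th and 90th percentiles. Red marks the 6 described subunits, of which Itgb2, Itgam, Itgb1 and Itgal lie above the upper line on their brightest probe set.

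A mixed list of integrin activation and adaptor genes, not all of which switch integrins on, gave many bright signals. Of 23 measured activation and adaptor genes, 20 lay above the floor (87.0%, against 71.3% of all genes). The 90th percentile was reached by 12 of the 23, against 14.8% of all genes. Their median percentile was 92.4, against 61.4 for all genes. The highest were Rap1b and Rap1a, small GTPases that drive integrins to the high-affinity form, at 6208 and 3493, and Fyb, the adaptor ADAP, at 5120. Fermt3, the kindlin of blood cells that binds the CD18 tail, read 2439, and Tln1 (talin 1), which binds integrin beta tails, read 458.9. These latter genes were named for their known role and fall outside the rule of the 3 highest and 3 lowest. The lowest were Fermt2, the kindlin of non-blood cells, at 67.78, and the parvin genes Parva and Parvb at 57.15 and 54.72, all below the floor.

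Selectins and the genes that build their ligands showed a wider range, with 11 of 14 measured genes above the floor (78.6%, against 71.3% of all genes) and a median percentile of 68. The 90th percentile was reached by 3 of them, against 14.8% of all genes. Cd24a, a small glycoprotein that can bind P-selectin, read 8087, Glg1, which encodes the E-selectin ligand ESL-1, read 1385, and B4galt1, a galactosyltransferase, read 746.89. Below the floor were Podxl at 67.43, the endothelial selectin gene Sele at 44.61 and the fucosyltransferase gene Fut4 at 37.91. Fut7, the fucosyltransferase that makes most selectin ligands on leukocytes and was named for that role, read 87.36, 1 of 8 genes of the list above the floor but below the 90th percentile.

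Other adhesion molecules of the immunoglobulin superfamily all lay below the 90th percentile. Of the 14 measured besides Icam1, 11 lay above the floor, beside 71.3% of all genes. The 90th percentile was reached by 0, beside 14.8% of all genes. Their median percentile was 58, against 61.4 for all genes. The highest were Alcam (CD166) at 579.78, F11r (JAM-A) at 382.17 and Vcam1 at 308.87, and their dimmest probe sets read 87.13, 66.19 and 113.66. Below the floor lay Cd99l2 at 57.26, Icam4 at 54.67 and Cd226 at 20.7.

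Genes of hyaluronan synthesis and binding, partners of CD44 and proteases that shed adhesion molecules formed a single list. Of its 15 measured genes, 13 passed the floor (86.7%, against 71.3% of all genes), and their median percentile over the list was 75.3. The 90th percentile was reached by 5, against 14.8% of all genes. Msn (moesin) and Ezr (ezrin), which link CD44 and PSGL-1 to actin, read 3378 and 1034. Adam17, a protease that sheds membrane proteins, read 2667, and the dimmest of its 3 probe sets read 2187. Of the genes of hyaluronan synthases, Has1 read 89.24, Has2 50.9 and Has3 30.1, the last 2 below the floor.

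**Figure D4:**
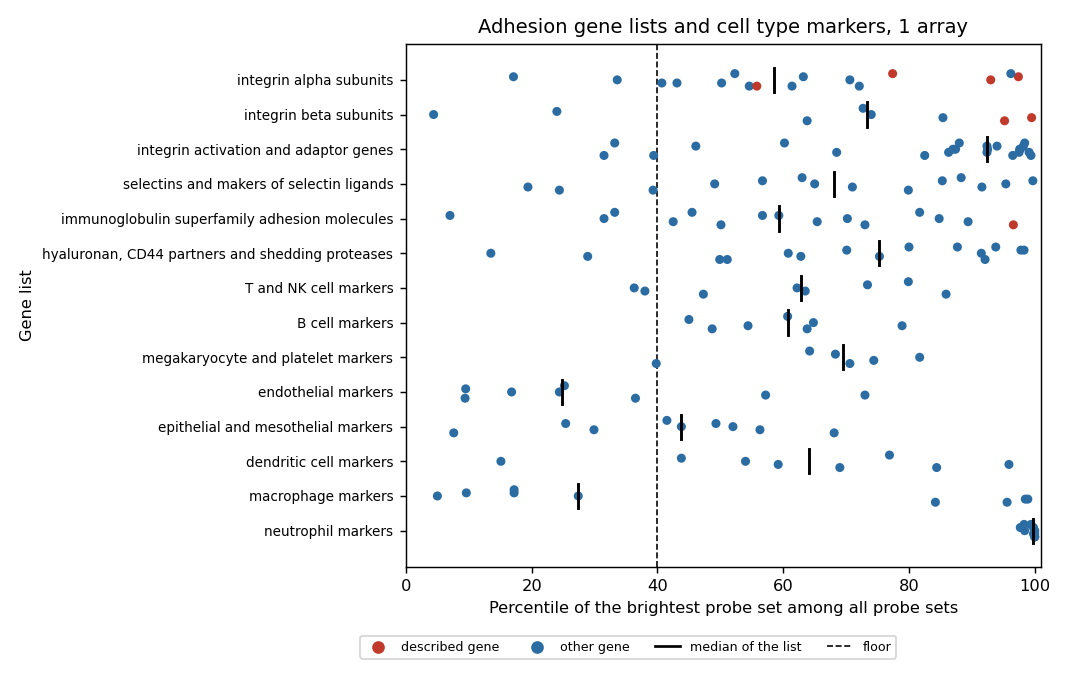
Percentile of the brightest probe set of each gene in 6 adhesion lists and 8 lists of cell type markers on the ID8-induced array, with a bar at each list's median and a dashed line at the floor. The neutrophil markers lie at the right edge, with a median of 99.8, and endothelial markers have a median of 24.8.

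Several members are shared by many kinds of leukocyte, so markers of the cells that marrow could hold were read on the same array. Since 71.3% of all genes passed the floor, with a median percentile of 61.4, a pass does not show that a cell type was present. All 10 measured neutrophil markers lay at or above the 90th percentile, with S100a9 the brightest at 24857. Macrophage markers were split, with 4 of 9 above the floor, and 3 on the dimmest probe set. Csf1r read 4403, Cd68 3597, Adgre1 1443 and C1qb 365.19, the first 3 of these above the 90th percentile. C1qb read 18.71 on the dimmest of its 3 probe sets. Mertk, Mrc1, C1qa, Cd163 and Vsig4 read 48.62, 35.06, 35.04, 17.09 and 24.44. Of 8 dendritic cell markers, which bear on Itgax, 7 passed (87.5%), and H2-Ab1, a class II gene that B cells and macrophages also use, was the only one above the 90th percentile, at 1531. H2-Aa read 371.9, with 10.67 on its dimmest probe set, and Ccr7 read 233.98. Flt3, Zbtb46, Cd209a and Siglech read 164.79, 117.11, 100.19 and 75.89, and Xcr1 lay below the floor at 32.24. T and NK cell markers, which bear on Itgal and Itga4, passed in 6 of 8 (75%), with 0 at the 90th percentile and a median percentile of 62.9. Zap70 read 416.95, Cd4 276.97, Cd8a 197.32, Cd3e 134.58, Gzma 129.14 and Cd3d 83.18. Cd3g and Ncr1 lay below the floor at 62.28 and 65.21. B cell markers passed in 7 of 7, with 0 at the 90th percentile, a median percentile of 60.7 and Cd79b the brightest at 261.18. On the dimmest probe set, 5 of 8 dendritic cell and 4 of 8 T and NK cell markers passed. For B cell markers 4 of 7 did, beside 49.7% of all genes.

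Megakaryocyte and platelet markers passed in 5 of 6 (83.3%), with Ppbp at 308.34 and Gp5 at 68.36. Endothelial markers, which bear on Icam1, passed in 2 of 8 (25%), Esam at 194.5 and Kdr at 109.7. Cdh5, Cldn5, Sele, Tek, Tie1 and Emcn read 62.62, 45.61, 44.61, 34.51, 24.35 and 24.25. Epithelial and mesothelial markers, which tumour cells could bring, passed in 6 of 9 (66.7%), below the share of all genes, with a median percentile of 43.8, Epcam at 158.91 and Krt19, Wt1 and Cdh1 at 46.03, 52.31 and 21.57. On the dimmest probe set, 4 of 6 megakaryocyte and platelet markers and 2 of 8 endothelial markers passed. Of epithelial and mesothelial markers 3 of 9 did. No marker measured was listed at 0. The part of each cell type in the members' signals was not tested.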

How the data were processed

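RNA of 2 samples was hybridised to 1 Affymetrix array each. The deposited values are signal intensity, 1 per probe set, made by the authors with MAS5 per the submitters' processing notes. The version of MAS5, its scaling target and detection calls were not given in the sources used here. Values were used as deposited. Of 45037 probe sets, 34945 carried 1 gene symbol in GEO's platform annotation, 932 several and 9160 none. Probe sets with 1 symbol were used. Each member's Entrez ID matched its symbol in the RefSeq table of GRCm38.p6.

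Gene counts rest on the brightest probe set, which favours genes with many, and every member probe set is also given. Named genes besides the members were the 3 highest and 3 lowest of each adhesion list, and of marker lists the brightest and those below the floor. Exceptions, chosen after their values were seen, were Fermt3, Tln1, Fut7, Cd68, Adgre1, C1qb, H2-Aa, Ccr7, Flt3, Zbtb46, Cd209a, Siglech, Cd4, Cd8a, Cd3e, Gzma, Cd3d and Kdr. The members and lists were chosen with earlier results of these data known. Other settings tried were a floor at the 20th or 60th percentile, the mean log2 signal over probe sets (signals under 1 set to 1), the dimmest probe set and probe sets without a suffix letter. No test was run, since 1 usable array has no replicate. The counting was checked on simulated data in which genes were placed above or below the floor. That check does not bear on the choice of floor or probe set. Python 3.11.15, numpy 2.4.6, pandas 2.3.3 and matplotlib 3.10.9 were used.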

Additional observations from a re-analysis of the deposited data

Results flagged for a closer look

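The bone marrow control column holds measured signals, but no gene is described from it, and it is given here for that reason. Its median signal was 92.31, against 89.52 in the ID8-induced column, and its highest was 26083.92. Over the whole column 6.89% of steps from row to row were upward, while in the ID8-induced column 49.9% were. No label gives a reason for this order.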

How the results depend on the processing

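The count of member genes above the floor, the count of member probe sets above it and the signals of Itgam, Itgax, Itgb2, Selplg and Icam1 moved by no more than 1.5 times under each alternative run, and the last 5 have 1 probe set each, so the alternatives could not move them. In all, 56 of 68 alternative values stayed within 1.5 times and 12 did not. With the mean log2 signal over probe sets, Itgal read 370.77, Itga4 85.05, Itgb1 95.01 and Cd44 1444.63. With the dimmest probe set they read 151.55, 28.65, 11.31 and 73.11, and 4 of 9 members reached the 90th percentile, against 7, an alternative added after the data were seen. With the floor at the 60th percentile, 8 of 16 alpha subunits lay above it. So did 7 of 15 genes of the immunoglobulin superfamily list (Icam1 included). The share of all genes above that floor was not counted. The median percentile of all genes on their brightest probe set was 61.4, and no difference from all genes is read from these counts. On the dimmest probe set, with the floor unchanged, 8 of 16 alpha subunits passed, against 49.7% of all genes. Counts with probe sets without a suffix letter cover fewer genes in each of the 6 adhesion lists. No paired analysis was possible because each group has 1 array and the control column is not tied to probe sets. No detection calls were used, and passing the floor does not by itself show expression.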

Other observations

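Other genes around the members were also read, in 3 lists chosen after the data were seen, and their counts stand beside the 71.3% of all genes above the floor and the 14.8% at the 90th percentile. Tetraspanins and membrane proteins that associate with integrins lay above the floor in 11 of 11 measured cases and at or above the 90th percentile in 10. Cd9 and Cd53, which are tetraspanins, read 10047 and 9753, the second with 287.67 on its dimmest probe set, and Bsg (basigin) read 8936. Slc3a2, which encodes CD98, a partner of integrin beta tails, read 3181, and Plaur, the urokinase receptor that associates with Mac-1, read 1851. The lowest was Cd151 at 407.32, with 53.21 on its dimmest of 6 probe sets.

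Kinases and adaptors that act downstream of integrins passed the floor in 13 of 13 measured cases, and 7 reached the 90th percentile. The adaptors Fcer1g and Tyrobp, through which CD18 integrins signal to Syk, read 11534 and 10322, and Lcp2 (SLP-76) read 2956 with 177.3 on its other probe set. Fgr, a Src family kinase of myeloid cells, read 2188 and Syk 2143, while Src itself read 111.26. Of the extracellular ligands, 3 of 6 measured passed. Thbs1 (thrombospondin) read 5096 and Fn1 (fibronectin) 736.54, with 75.17 on its dimmest probe set. The fibrinogen chain genes Fga, Fgb and Fgg, which are made mainly in liver, read 17.99, 36.98 and 41.6, all below the floor. These lists were picked with the array in view, and their counts support no other statement.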
